A study of Mus musculus with 6 samples.

Results

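Cajal-Retzius cells of the adult mouse hippocampus were examined as 142 cell barcodes out of 44736 kept barcodes in 6 single-cell RNA libraries. A barcode was kept with at least 500 genes, at least 1000 transcripts counted by unique molecular identifier (UMIs) and at most 15% mitochondrial UMIs. It was then counted as a Cajal-Retzius rule cell when it held at least 2 UMIs from at least 2 of the genes Trp73, Ebf3, Lhx1, Nhlh2 and Lhx1os, and at most 1 UMI of Gad1 and Gad2 together. The cells were therefore chosen by their measured RNA, and every contrast of their levels with other neurons is a description with no test. Tests were run only between groups of samples, including on whether a change between groups differed from that in other neurons.

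The libraries came from hippocampal tissue of 6-month-old mice. There were 2 samples each of 5×FAD mice given PBS (5×FAD PBS), 5×FAD mice given Aβ3FTnAu (5×FAD Aβ3FTnAu) and wild-type littermates given PBS (WT PBS). 5×FAD mice carry human transgenes, mutant APP among them, with familial Alzheimer's disease mutations under the neuronal mouse Thy1 promoter, and they deposit amyloid-β plaques. The series title describes Aβ3FTnAu as a protein-gold nanostructure directed at such plaques, and the sources used here do not give its dose or route. PBS, the buffered saline vehicle, was the control in both genotypes, and no wild-type mice given Aβ3FTnAu were analysed here. Nothing in the labels says that both samples of a group are separate mice, and p-values therefore measure the spread between these samples, which may be technical.

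Cajal-Retzius cells are early-born neurons of the outermost cortical layer and the hippocampal fissure. They secrete reelin, the glycoprotein that guides migrating neurons through the receptors Vldlr and Lrp8 and the adaptor Dab1. Most cortical Cajal-Retzius cells die soon after birth, whereas a remainder persists around the hippocampal fissure into adulthood, where they are glutamatergic. Trp73 encodes the p53-family factor p73, Ebf3 a helix-loop-helix factor of the EBF family, Lhx1 a LIM homeodomain factor and Nhlh2 a basic helix-loop-helix factor.

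The 6 libraries held 32528417 to 76780861 UMIs each, and 4823 to 13640 barcodes per library were kept. Barcodes without a single mitochondrial UMI made up 17.4% to 65.9% of the kept barcodes of a library. Among rule cells that share was 22.2% and 10.0% in the 5×FAD PBS samples, 44.4% and 50% in the 5×FAD Aβ3FTnAu samples and 42.3% and 35.0% in the WT PBS samples, so both PBS-treated 5×FAD samples lay below all others. Among the 30015 other neurons it was 24.3% and 20.1% in 5×FAD PBS, 68.1% and 65.8% in 5×FAD Aβ3FTnAu and 59.7% and 31.8% in WT PBS. The groups thus differed in this share, and its part in the comparisons below was not tested. Other neurons were the cells of clusters named as neurons by marker lists, without rule cells and without the cluster holding most of them. Some clusters were left unnamed and are not included. Among these were clusters of 753 and 2746 cells that scored highest for CA1 pyramidal neurons and 1 of 728 cells for granule neurons. Among the kept barcodes, 461 occurred in more than 1 library, and 1 of these was a rule cell. Below, paired values are given for replicate 1 and then replicate 2 of a group.

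The rule found 18 and 20 cells in the 5×FAD PBS samples, 18 and 14 in the 5×FAD Aβ3FTnAu samples and 52 and 20 in the WT PBS samples. Trp73 was present in 104 of the 142 cells (73.2%), Ebf3 in 109 (76.8%), Lhx1 in 45 (31.7%), Nhlh2 in 42 (29.6%) and Lhx1os in 37 (26.1%). Trp73 and Ebf3 occurred together in 79 cells. Exactly 2 of the 5 rule genes were seen in 96 cells, 3 in 39, 4 in 7 and all 5 in 0. Lhx1 (chr11:84518284-84525535, minus strand) and the noncoding gene Lhx1os (chr11:84525660-84535831, plus strand) start 125 bases apart in opposite directions. The sources used here do not say whether the counts used strand, and only 1 cell was chosen by these genes alone.

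Rule cells were shallow. Their median depth was 1950.5 UMIs, against 5045 in other neurons and 1340 in oligodendrocyte-like cells. Per sample the median rule cell had 1960.5 and 1704 UMIs in 5×FAD PBS, 1339.5 and 2310 in 5×FAD Aβ3FTnAu and 2511 and 2645.5 in WT PBS. A small number of deep cells carried much of the sum: 17 cells exceeded 10000 UMIs, and 1 cell of 113491 UMIs made up 72.9% of the rule-cell UMIs of 5×FAD Aβ3FTnAu replicate 2. Values of that sample therefore rest largely on 1 cell. That cell lay outside the cluster described next. Its Reln was the lowest of its sample, 0.441 per 10000 UMIs against a sample median of 41.8, so this marker went against the label. The profile, the gene tests and the Ndnf and Reln levels were also computed from the rule cells inside that cluster, which held 33821 UMIs in that sample.

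Unsupervised clustering placed 114 of the 142 cells (80.3%) in 1 cluster of 244 cells with a median of 1554 UMIs. Its leading genes were Reln, Ndnf, Dach1, Utrn and Tmem163, followed among the first 10 by Trp73 and Ebf3, and of all marker lists it scored highest for Cajal-Retzius cells, with oligodendrocytes as the next lineage. The remaining 130 cells of the cluster did not meet the rule, 44 of them without a UMI of any rule gene, yet all 130 held Reln. Outside the cluster lay 28 rule cells, 16 of them in clusters that scored for 2 lineages. The cluster was taken as the one holding most rule cells, and its marker list includes Trp73, Ebf3, Lhx1 and Nhlh2 of the rule. Its score is therefore no separate evidence for the label. Reln and Ndnf, which led the cluster, were not in the rule, and the rule also took in some cells of mixed profile.

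The edge of the rule was gradual. Among the 52 cells with exactly 2 rule UMIs, Reln was present in 94.2% and Ndnf in 86.5%, and 38 lay in the cluster. Among the 55 with 4 or more, Reln was present in 100%. Just outside, 87 barcodes with 2 or more UMIs from a single rule gene had Reln in 37.9%, and 568 barcodes with exactly 1 rule UMI had it in 15.7%. The 12 barcodes that met the rule except for Gad1 and Gad2 had Reln in 83.3% at a median of 31362 UMIs, far deeper than the rule cells.

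Because depth sets how often a gene is seen, detection was compared after thinning every cell to 1000 UMIs. Reln then appeared in 88.7% of rule cells (95% exact Clopper-Pearson interval 82.3% to 93.4%) and Ndnf, a secreted factor, in 67.6% (59.2% to 75.2%). The nearest comparison class was the 422 neurogliaform-type interneurons (at least 2 UMIs of Gad1 and Gad2 and at least 2 UMIs from 2 or more of Lamp5, Cplx3, Kit and Npy), which also express both genes: they had Reln in 36.3% and Ndnf in 15.2%. The 8088 dentate granule neurons (at least 2 UMIs from 2 or more of Prox1, C1ql2, Dsp and Glis3), which should lack both, had 0.692% and 0.247%. Median depths before thinning were 1950.5, 5867 and 5068.5 UMIs in these classes, and without thinning Reln was in 97.2%, 59.2% and 3.31% of cells. Intervals cover counting error only.

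**Figure D1:**
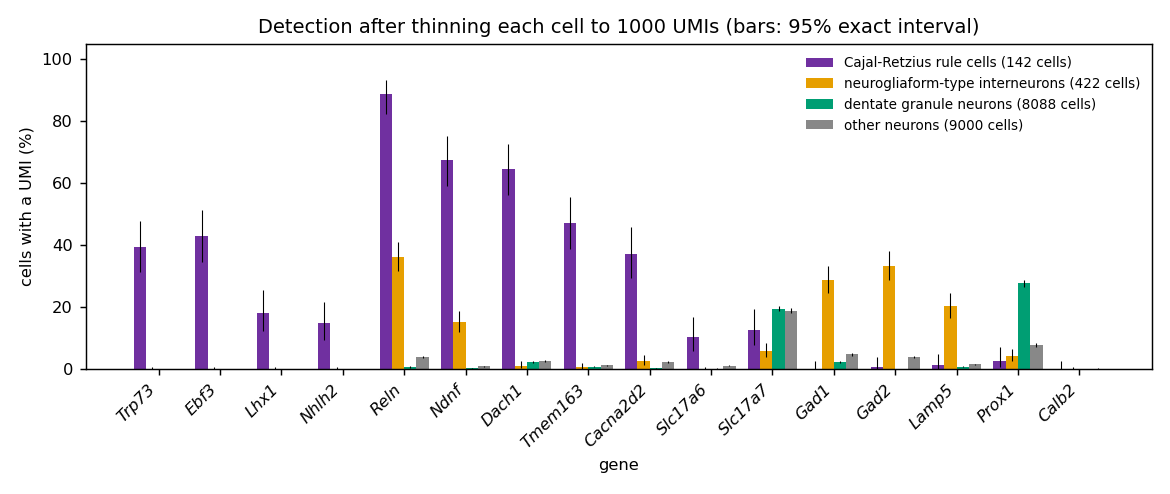
Share of cells with at least 1 UMI (percent, vertical axis) of 16 genes (horizontal axis) after thinning each cell to 1000 UMIs, in rule cells, neurogliaform-type interneurons, granule neurons and other neurons; bars start at 0 and lines are 95% exact intervals. Reln (88.7%), Ndnf (67.6%) and Dach1 (64.8%) were seen in most rule cells, while Gad1 was seen in 0 of 142.

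The transmitter genes set the rule cells apart from interneurons, in part by construction. Gad1, an enzyme of GABA synthesis that the rule limited, was found in 4 of 142 cells (2.82%) before thinning and in none after it. Slc17a6, the vesicular glutamate transporter VGLUT2, was not used by the rule and was found in 10.6% (6.03% to 16.8%), against 1.14% of other neurons and none of the 422 neurogliaform-type interneurons. Before thinning it was in 26.8% of rule cells, 5.26% of other neurons and 14 neurogliaform-type interneurons (3.32%), whose median depth was 5867 UMIs. Slc17a7, the VGLUT1 transporter of most hippocampal pyramidal and granule neurons, was found in 12.7%, against 19.5% of granule neurons and 5.92% of neurogliaform-type interneurons.

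Calb2, the calretinin gene often used to mark Cajal-Retzius cells, went against the label. It gave 2 UMIs in all, both in WT PBS replicate 1, and was found in 2 of 142 cells (1.41%) before thinning. Other neurons had it in 0.7% before thinning, and the 130 cluster cells outside the rule in 5 cells (3.85%). Cxcr4, the chemokine receptor of migrating Cajal-Retzius cells, was found in 5.63% of thinned rule cells and 0.0111% of other neurons.

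Levels were then summed per sample and scaled by the sample's total to CPM, the usual depth-normalised count, and log2 ratios were taken with 1 CPM added to both sides. Of 4081 genes with at least 50 CPM in the higher class, 186 (4.56%) were at least 2-fold higher in rule cells than in other neurons with the same direction in all 6 samples, and 99 (2.43%) were at least 2-fold lower. The median log2 ratio over all 4081 was 0.08. These shares describe the contrast the cells were chosen by.

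The rule genes stood at the top, as the rule required. Trp73 was at 557 and 334 CPM in 5×FAD PBS, 351 and 128 in 5×FAD Aβ3FTnAu and 162 and 290 in WT PBS, and at 0.885 ± 0.22 CPM in other neurons (SD, n = 6). Ebf3 was at 690 and 334, 368 and 70.6, and 186 and 255 CPM in the same order, against 0.366 ± 0.425. The lowest value of both genes was in 5×FAD Aβ3FTnAu replicate 2, the sample with the very deep cell. Nhlh2 averaged 97.7 ± 55.6 CPM, against 0.380 ± 0.0793. Lhx1 had 59 UMIs in rule cells and 3 in all other neurons, and Lhx1os had 39 and 7.

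Outside the rule, Ndnf and Reln had the highest detection among the Cajal-Retzius markers. Reln was at 6233 and 2818 CPM in 5×FAD PBS, 3993 and 1078 in 5×FAD Aβ3FTnAu and 1820 and 3390 in WT PBS, against 75.9 ± 27.0 CPM in other neurons, a log2 ratio of 5.39. Every rule-cell value exceeded every value of the other neurons, which ran from 44.5 to 109 CPM. Single cells varied widely: the median rule cell held 10.5 Reln UMIs and 3 Ndnf UMIs, and the highest 45 and 16. Against neurogliaform-type interneurons (507 CPM) the log2 ratio of Reln was 2.66. Ndnf averaged 871 ± 581 CPM against 10.2 ± 2.6 in other neurons (log2 ratio 6.29) and 104 in neurogliaform-type interneurons (3.06).

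The promoters of Reln, the ligand these cells are known for, and of Ebf3, the gene with the largest ratio, are shown because both windows hold the palindromic core bound by EBF proteins, the family of Ebf3 itself. Each line is the 250 bases before the RefSeq gene start on GRCm38.p6, 5′ to 3′ on the gene's own strand (minus for both), at chr5:22344706-22344955 for Reln and chr7:137314446-137314695 for Ebf3. Capitals mark matches to CCCNNGGG, a palindrome that reads alike on both strands.
Reln promoter: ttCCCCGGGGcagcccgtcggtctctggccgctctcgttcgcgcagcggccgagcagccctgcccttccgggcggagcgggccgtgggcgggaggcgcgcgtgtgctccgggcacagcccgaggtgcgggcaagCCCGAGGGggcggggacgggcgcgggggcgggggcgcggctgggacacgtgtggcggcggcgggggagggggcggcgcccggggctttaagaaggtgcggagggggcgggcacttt
Ebf3 promoter: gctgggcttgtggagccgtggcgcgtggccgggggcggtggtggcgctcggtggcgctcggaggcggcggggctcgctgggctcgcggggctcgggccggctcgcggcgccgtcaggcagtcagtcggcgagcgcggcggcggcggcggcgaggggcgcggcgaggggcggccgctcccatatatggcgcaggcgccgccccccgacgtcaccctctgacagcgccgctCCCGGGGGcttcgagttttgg
Reln has 2 matches and Ebf3 has 1. Of the 20 genes with the largest ratios, 16 were matched to 21 RefSeq promoters, and 4 of the 21 (19.0%) held CCCNNGGG, those of Ebf3, Lhx1os, Reln and Utrn, against 11.8% of all 32851 promoters. TAATTA, a homeodomain core, was in 1 of the 21 (Tmem163; 4.84% of all), and CAGCTG, an E-box, in 3 (Nxn, Prr5l and Trp73; 13.0% of all). A match is a string in this window, and binding was not measured.

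Further genes of the top 20 had much lower levels in other neurons. Cd274, which encodes the immune checkpoint ligand PD-L1, was at 178 and 167 CPM in 5×FAD PBS, 134 and 12.8 in 5×FAD Aβ3FTnAu and 72.2 and 46.4 in WT PBS, against 0.677 ± 0.0941 in other neurons (log2 ratio 5.94). Dach1, a transcriptional cofactor, averaged 888 ± 446 CPM against 29.3 ± 4.07 (4.88). Tmem163, a zinc transporter of synaptic vesicles, averaged 390 ± 172 CPM against 13.3 ± 3.87 (4.78). Thinned to 1000 UMIs, Tmem163 was in 47.2% of rule cells and 10.1% of oligodendrocyte-like cells, and Dach1 in 64.8% and 0.488%. Against oligodendrocyte-like cells Tmem163 was thus the less specific gene. Among other neurons it was the rarer gene, at 1.22% against 2.68% for Dach1.

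Utrn, the dystrophin relative utrophin, averaged 815 ± 509 CPM against 48.9 ± 12.8 (log2 ratio 4.03). It was also among the leading genes of an inhibitory neuron cluster of 2689 cells. Eln, elastin, averaged 101.2 ± 43.1 CPM against 4.71 ± 1.03 (4.16). Lrig3, a leucine-rich repeat membrane protein, averaged 98.3 ± 66.3 CPM against 1.24 ± 0.267 (5.47), and Ggt5, a gamma-glutamyltransferase, 54.4 ± 34.6 CPM against 0.142 ± 0.0669 (5.60). Pik3c2g, a class II phosphoinositide 3-kinase, averaged 100 ± 63.9 CPM against 2.01 ± 0.318 (5.07). Nxn, Vmn2r2 and Creb5 had ratios of 4.50, 4.22 and 4.22. All these ratios were larger when only rule cells inside the cluster were used.

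Neat1 and Prr5l had smaller ratios inside the cluster. Neat1, a nuclear long noncoding RNA, averaged 120 CPM in rule cells and 6.15 in other neurons, but 72.3 in neurogliaform-type interneurons and 74.9 in granule neurons as chosen by marker UMIs, and its ratio was smaller inside the cluster (3.39 against 4.08). Prr5l likewise averaged 62.3 CPM, against 3.21 in other neurons and 53.0 in neurogliaform-type interneurons (3.32 inside the cluster against 3.91). Both genes were also among the 3 leading genes of the oligodendrocyte-like cluster, and the part of such RNA in these values was not tested.

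**Figure D2:**
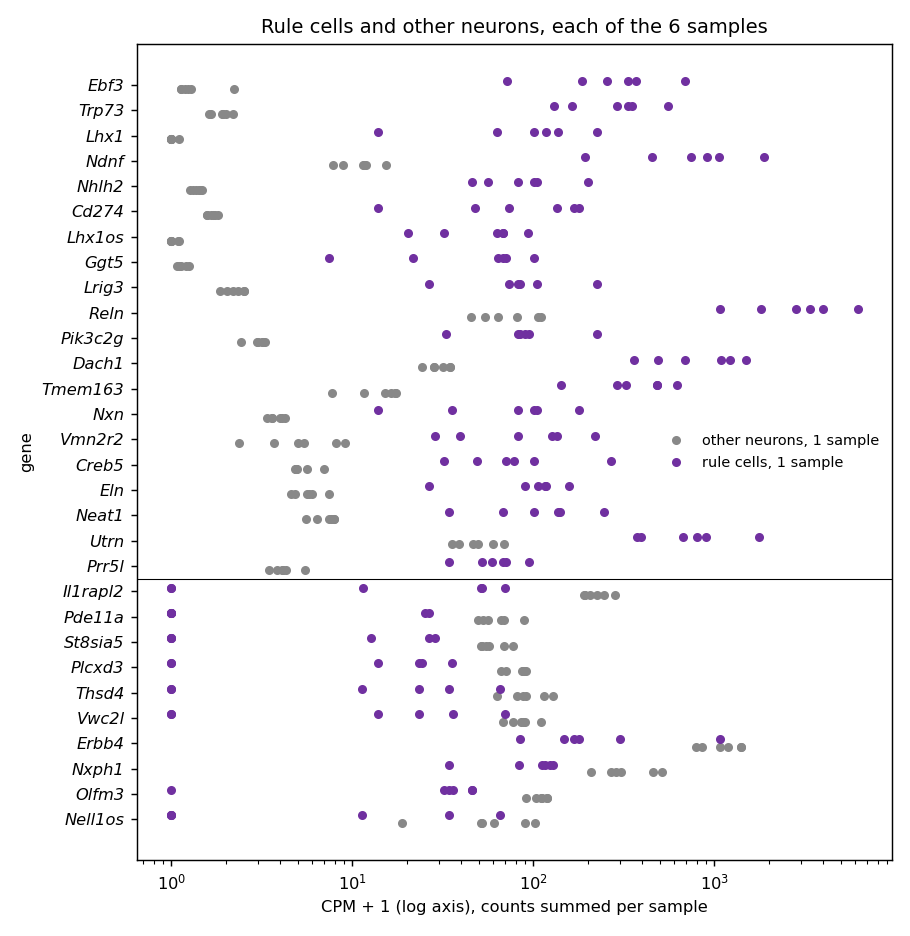
CPM plus 1 (logarithmic horizontal axis) of the 20 genes with the largest and the 10 with the smallest ratio of rule cells over other neurons (vertical axis), 1 point per sample and class. Rule-cell points of Trp73, Ebf3, Reln and Ndnf lie right of every other-neuron point, and those of Erbb4 and Il1rapl2 lie left of the other-neuron point of the same sample.

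Of 23 other genes known from Cajal-Retzius cells, 11 reached the level filter, 9 of these were higher and 0 lower, with a median log2 ratio of 2.54 against 0.08 over all genes. Cacna2d2, a calcium channel accessory subunit, was at 957 and 292 CPM in 5×FAD PBS, 217 and 109 in 5×FAD Aβ3FTnAu and 175 and 418 in WT PBS, against 23.3 ± 5.84 in other neurons (log2 ratio 3.90). Thsd7b averaged 1283 ± 838 CPM against 269 ± 14.2 (2.25), Nr2f2, the nuclear receptor COUP-TFII, 87.8 ± 80.3 against 12.4 ± 5.56 (2.73), and Clstn2, a synaptic calsyntenin, 2136 ± 559 against 954 ± 109 (1.16). Slc17a6 averaged 71.2 ± 15.1 CPM against 11.4 ± 3.14 (2.54) and was higher in all 6 samples. Lhx5, the close relative of Lhx1, stayed below the filter at 35.1 CPM, against 0.170.

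The reelin pathway beyond the ligand did not stand out. Of its 24 genes 11 were tested, with 1 higher (Reln) and 0 lower, and a median log2 ratio of 0.16. Dab1, the intracellular adaptor, averaged 1860 ± 550 CPM against 2588 ± 189 (-0.48) and was lower in all 6 samples without reaching 2-fold. The receptors Lrp8 (42.0 against 42.9 CPM) and Vldlr (40.9 against 33.5) were below the level filter. Chloride balance genes, which set whether GABA excites or inhibits, gave 7 tested genes with 0 higher and 0 lower. The exporter gene Slc12a5 averaged 90.0 ± 49.1 CPM against 137 ± 47.0, and the importer gene Slc12a2 39.5 ± 30.6 against 40.7 ± 3.68.

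Of 22 voltage-gated channel genes tested, 1 was lower and 2 were higher, Cacna2d1 and Cacna2d2, which encode calcium channel accessory subunits. Over all genes 4.56% were higher and 2.43% lower. Of 20 transmitter receptor genes tested 0 were higher and 1 was lower, Chrna7 of the nicotinic acetylcholine receptor (57.9 against 124 CPM, -1.08), with a list median of -0.60. Inside the cluster 7 of the receptor genes were lower, with a median of -0.86 against 0.06 over all genes. The share of all genes lower inside the cluster was not counted, so the 7 have no background. Of 14 synaptic genes Nrxn3, a presynaptic neurexin, was lower (2424 ± 1522 against 5712 ± 956 CPM, -1.24). Of 6 tested GABAergic genes Erbb4 and Nxph1 were lower, and of 8 glutamatergic genes Slc17a6 was higher and 1 was lower, with a median of -0.55. Diablo, a mitochondrial pro-apoptotic gene, was the 1 higher gene among 3 tested cell death genes (98.9 ± 86.0 against 10.5 ± 0.972 CPM, 3.12). Of 12 immediate early genes 0 reached the filter, with Fos at 0, and of the heat shock, cholesterol synthesis and oxidative phosphorylation lists 2, 1 and 4 genes did, with 0 higher and 0 lower.

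Among the lower genes, Il1rapl2, a synaptic adhesion gene, had the smallest ratio (30.1 ± 30.2 against 223 ± 35.8 CPM, -2.85). Pde11a, a phosphodiesterase, followed at 8.29 ± 12.9 against 62.5 ± 14.3 (-2.77), and St8sia5, Plcxd3, Thsd4, Vwc2l, Olfm3 and Nell1os ranged from -2.35 to -1.72. Erbb4, the neuregulin receptor of interneurons, was at 83.5 to 299 CPM in 5 samples and at 1068 in WT PBS replicate 2, against 1120 ± 263 in other neurons, and its ratio went from -1.79 to -3.89 inside the cluster. Nxph1, a neurexin ligand of interneurons, went from -1.77 to -3.32 inside the cluster and to -0.37 after thinning to 2000 UMIs.

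Amyloid genes were at neuronal levels. App averaged 586 ± 142 CPM in rule cells and 536 ± 62.1 in other neurons (log2 ratio 0.13). Of 9 amyloid processing genes tested only Apoe was higher, at 191 ± 112 against 62.5 ± 19.97 CPM (1.60), and Apoe is mainly a glial gene. Of 12 genes of plaque-state microglia 4 were tested, and Apoe and Cd9 were higher.

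RNA of other cell types was present in rule cells. The 6 oligodendrocyte markers summed to 217 to 766 CPM per sample against a mean of 123 in other neurons, with none at 0, and Mbp was in 6.34% of thinned rule cells against 94.0% of oligodendrocyte-like cells. The 6 microglia markers summed to 234 to 814 CPM against 221, and the 6 astrocyte markers to 104 to 557 against 178.5 with Gfap at 0. Ependymal, choroid plexus, endothelial, mural and fibroblast lists each summed to at most 44.7 CPM in any sample, with Ccdc153, Folr1, Cldn5, Vtn and Col1a1 at 0. The 6 inhibitory neuron markers summed to 100 to 396 CPM in 5 samples and 1138 in WT PBS replicate 2. Inside the cluster the oligodendrocyte markers still summed to 114 to 693 CPM. The part of this RNA in the profile was not tested.

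The first comparison between groups concerned the number of rule cells. They made up 0.373% (95% exact interval 0.221% to 0.589%) and 0.255% (0.156% to 0.394%) of kept barcodes in 5×FAD PBS, 0.259% (0.154% to 0.409%) and 0.241% (0.132% to 0.403%) in 5×FAD Aβ3FTnAu, and 0.381% (0.285% to 0.5%) and 0.353% (0.216% to 0.545%) in WT PBS. The Aβ3FTnAu samples lay below the WT PBS samples, and the 5×FAD PBS samples overlapped both groups. With edgeR's quasi-likelihood test on cell counts of 7 classes and Benjamini-Hochberg adjustment, no difference passed: log2 -0.25 ± 0.22 (SE) for 5×FAD PBS against WT PBS (adjusted p = 0.358), -0.30 ± 0.23 for 5×FAD Aβ3FTnAu against 5×FAD PBS (adjusted p = 0.529) and -0.56 ± 0.22 for 5×FAD Aβ3FTnAu against WT PBS (adjusted p = 0.122).

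Counted as the whole cluster instead, with no minimum of rule UMIs, the shares were 0.539% and 0.383% in 5×FAD PBS, 0.662% and 0.498% in 5×FAD Aβ3FTnAu and 0.579% and 0.6% in WT PBS. The order of the groups changed: 5×FAD Aβ3FTnAu was then above 5×FAD PBS (log2 0.35, edgeR adjusted p = 0.312) and level with WT PBS (-0.02, adjusted p = 0.979). Relative to neuron-like cells alone, the rule-cell share in 5×FAD Aβ3FTnAu was below that in WT PBS (log2 -0.82 ± 0.22, edgeR adjusted p = 0.0493). That fit held only 2 classes, rule cells and neuron-like cells, whose sum was its total. The classes are therefore not independent, and the spread was estimated from them alone. With 7 classes the difference did not pass (log2 -0.56, edgeR adjusted p = 0.122). The smaller p was adjusted over 2 classes, and neuron-like cells were those of clusters named as neurons, not all neurons. The denominator differed too: other neurons were 79.5% and 74.7% of kept barcodes in 5×FAD Aβ3FTnAu, 58.0% and 61.5% in 5×FAD PBS and 64.4% and 66.0% in WT PBS. A lower number of cells that reach 2 rule UMIs can mean fewer cells or less RNA per cell, and these cannot be told apart by the rule.

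**Figure D3:**
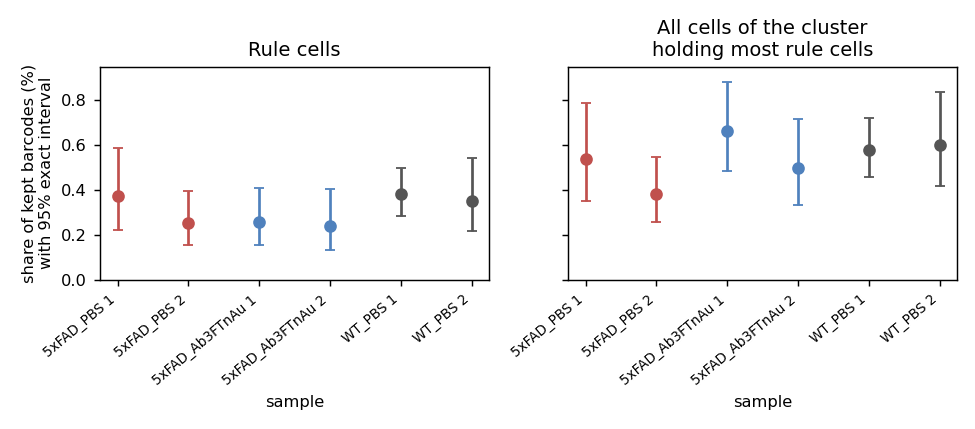
Share of kept barcodes (percent, vertical axis) per sample (horizontal axis) for rule cells (left) and the whole cluster (right), with 95% exact intervals. Intervals overlap across all 6 samples in both panels, and 5×FAD Aβ3FTnAu replicate 1 is among the lower rule-cell shares (0.259%) but has the highest cluster share (0.662%).

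Gene levels were compared between groups on UMIs summed over the rule cells of each sample, with 2201 genes passing the count filter. Rule-cell sums were 44919 and 95831 UMIs in 5×FAD PBS, 59854 and 155767 in 5×FAD Aβ3FTnAu and 290690 and 86125 in WT PBS. In counts simulated at these depths the same test recovered 76% to 87% of 4-fold changes but 5% to 10% of 2-fold changes, so smaller differences were largely not detectable.

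Between 5×FAD PBS and WT PBS, which asks about genotype, 0 of 2201 genes passed an adjusted p of 0.05 (0%, edgeR quasi-likelihood test with Benjamini-Hochberg adjustment). At an unadjusted p under 0.05 there were 93 (4.23%), and DESeq2 called 1, Galntl6. The smallest unadjusted p-values in each direction belonged to Kcnmb2, Ccdc73, Gm13963, Arhgap5 and Tead1, with higher values in 5×FAD PBS, and, with lower values, to genes that included Galntl6, Tenm3, Grm8 and Gpc6. Galntl6, a glycosyltransferase family gene, was at 66.8 and 230 CPM in 5×FAD PBS and 1142 and 859 in WT PBS (log2 -2.62 ± 0.54, edgeR adjusted p = 0.634). Kcnmb2, a potassium channel accessory subunit, was at 223 and 209 against 44.7 and 58.1 CPM (2.11 ± 0.54, edgeR adjusted p = 0.649). Grm8, a metabotropic glutamate receptor gene, had 2 UMIs in 5×FAD PBS and 72 in WT PBS, a ratio of 0.0744 (95% counting interval 0.00884 to 0.279).

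Because the rule set a minimum of their UMIs in every cell, differences of the rule genes between groups are given as a description: 1.003 ± 0.52 for Trp73, 1.19 ± 0.61 for Ebf3 and 1.06 ± 0.70 for Lhx1 on the log2 scale. Reln (0.79 ± 0.60, edgeR adjusted p = 0.999) and Ndnf (0.83 ± 0.47, 0.986) did not pass. Of 8 tested Cajal-Retzius genes outside the rule 7 had positive differences, with a median of 0.81 against 0.01 over all genes. App (0.43 ± 0.40, edgeR adjusted p = 0.999) and Apoe (1.03 ± 0.41, 0.986) did not pass either. Apoe was at 267 and 376 CPM in 5×FAD PBS, 83.5 and 116 in 5×FAD Aβ3FTnAu and 189 and 116 in WT PBS.

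Between 5×FAD Aβ3FTnAu and 5×FAD PBS, which asks about treatment, 15 of 2201 genes (0.682%) rose and 0 fell, and 262 (11.9%) had an unadjusted p under 0.05. Named protein-coding genes among the 15 were Nell1, Cntnap5c, Khdrbs3, Chrm3, Tenm3, Galntl6 and Pde4d. The other 8 were gene models without an assigned function: Gm5441, Gm37459, Gm10848, Gm12296, 1700085D07Rik, 1700109K24Rik, 4930419G24Rik and 4930547E14Rik. From rule cells inside the cluster, edgeR called 14 of 1080 tested genes, all of them rises. Of the 15, these held Chrm3, Tenm3, Pde4d, Gm37459, Gm10848, Gm12296 and 4930419G24Rik. Nell1, Cntnap5c, Khdrbs3, Galntl6 and the remaining models were not called there. Galntl6 was tested in that set, but a gene below its count filter could not be called.

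Nell1 (chr7:49974864-50866608, plus strand), which encodes a secreted protein kinase C-binding protein, was at 0 and 10.4 CPM in 5×FAD PBS, 251 and 360 in 5×FAD Aβ3FTnAu and 68.8 and 46.4 in WT PBS. The log2 difference to 5×FAD PBS was 5.36 ± 0.76 (edgeR adjusted p = 0.0301). It rests on 71 UMIs against 1, a ratio of 46.4 with a 95% counting interval of 8.05 to 1856. Nell1os lies within Nell1 on the opposite strand, and reads of the pair cannot be told apart if strand was not used.

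Chrm3 (chr13:9875486-10360847, minus strand), the M3 muscarinic acetylcholine receptor, was at 22.3 and 125 CPM in 5×FAD PBS, 635 and 738 in 5×FAD Aβ3FTnAu and 220 and 232 in WT PBS (3.05 ± 0.53, edgeR adjusted p = 0.0320). Khdrbs3, an RNA-binding splicing regulator, was at 44.5 and 62.6, 702 and 469, and 292 and 104 CPM in the same order (3.398 ± 0.61, edgeR adjusted p = 0.0324). Cntnap5c, a contactin-associated adhesion gene, was at 22.3 and 41.7, 501 and 347, and 124 and 46.4 CPM (3.59 ± 0.61, edgeR adjusted p = 0.0320). In Nell1, Chrm3, Khdrbs3 and Cntnap5c alike, both 5×FAD PBS samples lay below both WT PBS samples and both Aβ3FTnAu samples above them.

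Gm37459 (22.3 and 62.6 against 401 and 738 CPM, log2 3.65 ± 0.58) and 4930419G24Rik (44.5 and 198 against 685 and 1406 CPM, 3.02 ± 0.60) are annotated antisense to the CA1 marker Pex5l, with edgeR adjusted p-values of 0.0320 and 0.0433. Pex5l itself was at 178 and 292 CPM in 5×FAD PBS, 485 and 976 in 5×FAD Aβ3FTnAu and 698 and 267 in WT PBS, and it was looked at after these values were seen. Gm5441 (66 UMIs against 3) and 1700085D07Rik (57 against 3) had ratios of 14.4 and 12.4, with counting intervals of 4.70 to 71.4 and 4.04 to 61.9.

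The same genes had differences of the same sign in other cell classes of these samples, with few exceptions and at a smaller size. The 15 genes had a median log2 ratio of mean CPM of 3.20 in rule cells, 0.82 in other neurons (15 higher, 14 with groups that did not overlap), 0.73 in oligodendrocyte-like cells (14 higher) and 1.72 in astrocyte-like cells (15 higher). The choice of these genes in rule cells inflates the first value. Counts over all genes in these classes were not made, so the counts of higher or separate genes have no background. Other neurons of these groups also differed in the share of barcodes without a mitochondrial UMI, and its part was not tested. Sums of neuronal RNA ran in the same order: the 6 pan-neuronal markers summed to 3985 and 6564 CPM in rule cells of 5×FAD PBS, 12363 and 11138 in 5×FAD Aβ3FTnAu and 8917 and 7431 in WT PBS. The 99 genes that were lower in rule cells than in other neurons took 0.574% and 1.11% of rule-cell UMIs in 5×FAD PBS, 2.12% and 2.45% in 5×FAD Aβ3FTnAu and 1.77% and 1.73% in WT PBS. Inside the cluster that order of groups was the same (0.574% and 0.603%, 2.15% and 2.12%, 1.52% and 1.25%), and the part of such RNA in the 15 rises was not tested.

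**Figure D4:**
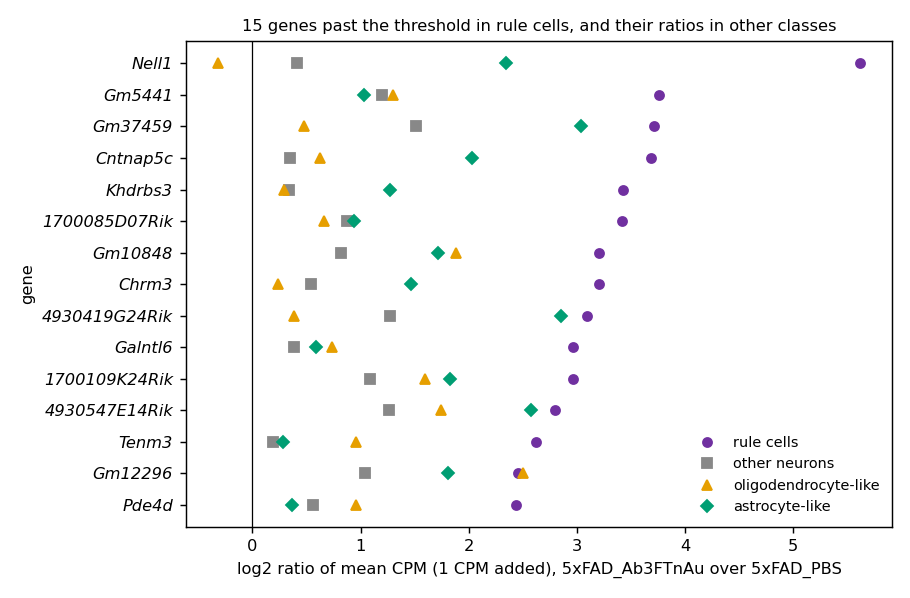
Log2 ratio of mean CPM, 5×FAD Aβ3FTnAu over 5×FAD PBS (horizontal axis), of the 15 genes that rose in rule cells (vertical axis), in rule cells, other neurons, oligodendrocyte-like and astrocyte-like cells. Rule cells have the largest ratios (median 3.20), and other neurons lie above 0 for all 15.

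Ndnf, by contrast, had a negative difference. It was at 1870 and 1064 CPM in 5×FAD PBS, 451 and 193 in 5×FAD Aβ3FTnAu and 740 and 906 in WT PBS, so both Aβ3FTnAu samples lay below the other 4. The difference to 5×FAD PBS was -2.18 ± 0.51 on the log2 scale and missed the threshold (edgeR adjusted p = 0.0718, unadjusted p = 0.00105). It passed with DESeq2 (adjusted p = 0.00918), with no filter on low counts (edgeR, -2.02, adjusted p = 0.0152) and with the stricter rule of 3 UMIs and no Gad1 or Gad2 (edgeR, -1.90, adjusted p = 0.0410). It did not pass by edgeR with at least 10 UMIs in 2 samples (adjusted p = 0.0643), with only the groups compared (0.0906), with doublets removed (0.143), with a replicate block (0.0820), inside the cluster (0.0504), in the whole cluster (0.0520), under 10000 UMIs (0.0580) or with cells holding a mitochondrial UMI (0.293). With 1 library left out the edgeR adjusted p ran from 0.00318 (without 5×FAD PBS replicate 2) to 0.768 (without 5×FAD Aβ3FTnAu replicate 2).

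Because Ndnf and Reln were both high in rule cells, Ndnf was also read per Reln UMI, which does not use the total of other RNA. Other neurons held both genes too, with Reln at 107 CPM and Ndnf at 10.8 in 5×FAD Aβ3FTnAu, and 48.7 and 7.37 in 5×FAD PBS. The part of such RNA in the ratio was not tested. Ndnf per Reln UMI in rule cells was 0.300 and 0.378 in 5×FAD PBS, 0.113 and 0.179 in 5×FAD Aβ3FTnAu and 0.406 and 0.267 in WT PBS. Over the whole cluster it was 0.314 and 0.356, 0.179 and 0.157, and 0.436 and 0.224. In both sets the Aβ3FTnAu samples were the lowest, with no test run on the ratio. Inside the cluster Ndnf was at 2028 and 2644, 460 and 828, and 1977 and 1039 CPM, and Reln at 6553 and 6879, 3935 and 4169, and 4475 and 4127 CPM.

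**Figure D5:**
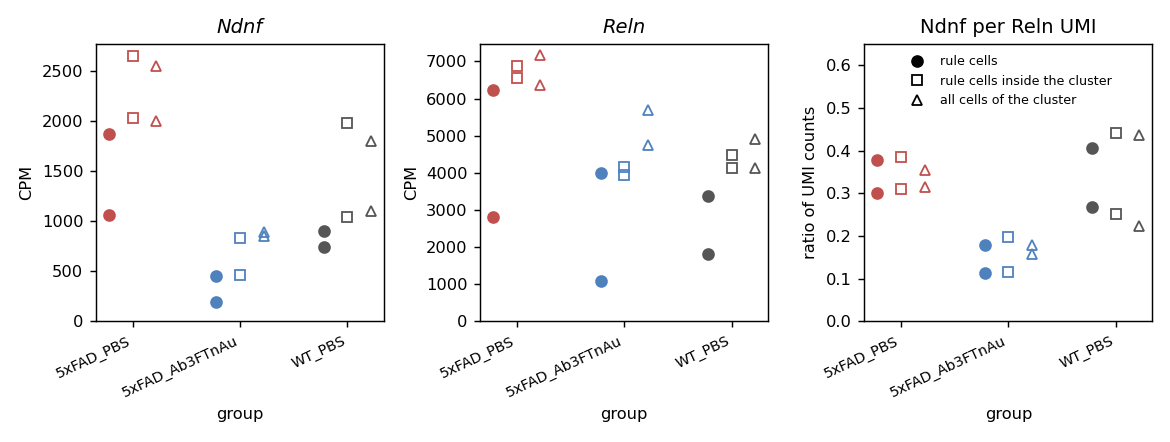
Ndnf CPM, Reln CPM and Ndnf UMIs per Reln UMI (vertical axes, left to right) in the 3 groups (horizontal axis); circles are rule cells, squares rule cells inside the cluster and triangles the whole cluster, 1 symbol per sample. Both 5×FAD Aβ3FTnAu samples have the lowest Ndnf per Reln among rule cells (0.113 and 0.179).

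Reln did not pass in rule cells (-0.79 ± 0.60, edgeR adjusted p = 0.653), and neither did Cacna2d2 (-1.90 ± 0.66, 0.261). The rule genes, again as a description, had differences of -0.91 ± 0.54 (Trp73), -1.32 ± 0.65 (Ebf3) and -1.94 ± 0.82 (Lhx1). Of 8 tested Cajal-Retzius genes outside the rule 2 had positive differences, with a median of -0.83 against 0.01 over all genes, and 0 passed. Of 15 transmitter receptor genes 13 had positive differences with a median of 0.32, and 0 passed. Apoe (-1.58 ± 0.45, edgeR adjusted p = 0.140) and App (-0.48 ± 0.41, 0.702) did not pass.

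The change of rule cells was compared with that of other neurons by an interaction term, and 10 of 2201 genes differed for 5×FAD Aβ3FTnAu against 5×FAD PBS, 7 with a more positive and 3 with a more negative change in rule cells (195 at an unadjusted p under 0.05). Ndnf was among them: its change in rule cells was lower by 2.71 ± 0.48 on the log2 scale (difference -2.71, edgeR adjusted p = 0.0279), with means of 322 against 1467 CPM in rule cells and 10.8 against 7.37 in other neurons. Nell1 was higher by 5.19 ± 0.85 (edgeR adjusted p = 0.0279). For the other comparisons 0 genes differed at the adjusted level, with 89 and 81 at an unadjusted p under 0.05 (edgeR). DESeq2 was not run for this term. The mix of neurons differed between these groups. Relative to the number of neuron-like cells, granule neurons chosen by marker UMIs stood at 40.7% and 39.2% in 5×FAD PBS and 17.7% and 14.2% in 5×FAD Aβ3FTnAu. Neurogliaform-type interneurons stood at 0.885% and 1.05%, and at 1.31% and 1.80%, in the same order. Barcodes without a mitochondrial UMI were also more frequent among other neurons of 5×FAD Aβ3FTnAu than of 5×FAD PBS. The part of this mix and of that share in the 10 differences was not tested.

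With the whole cluster, an alternative chosen after seeing the data, Reln (-1.55 ± 0.20, edgeR adjusted p = 8.5e-04) and Ndnf (-1.96 ± 0.27, edgeR adjusted p = 0.00112) had lower changes than in other neurons for 5×FAD Aβ3FTnAu against 5×FAD PBS. In the same cells Dab1 (1.32 ± 0.26, edgeR adjusted p = 0.0299) and the ephrin receptor gene Epha6 (2.16 ± 0.28, edgeR adjusted p = 8.5e-04) had higher ones. For 5×FAD PBS against WT PBS, Reln (1.11 ± 0.20, edgeR adjusted p = 0.0252) and Ndnf (1.38 ± 0.26, edgeR adjusted p = 0.0252) had higher changes than in other neurons. Whole-cluster Reln means were 6762 CPM in 5×FAD PBS, 5211 in 5×FAD Aβ3FTnAu and 4526 in WT PBS, against 48.7, 107 and 71.8 in other neurons. For 5×FAD Aβ3FTnAu against 5×FAD PBS, most of the Reln difference by these means thus lies in the other neurons, whose Reln was highest in 5×FAD Aβ3FTnAu. In the cluster itself Reln was not called between these groups.

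Between 5×FAD Aβ3FTnAu and WT PBS, which differ in genotype and treatment, 21 of 2201 genes (0.954%) rose and 0 fell, with 229 (10.4%) at an unadjusted p under 0.05. This comparison shares its Aβ3FTnAu samples with the one above, and 8 genes were called in both, 8 of 15 and 8 of 21. Of the 21, 17 were unnamed models or antisense transcripts, and the named ones were Nell1, Cntnap5c, Brd9 and Lrtm1. Brd9, a bromodomain subunit of a chromatin remodelling complex, averaged 292 CPM in 5×FAD Aβ3FTnAu and 69.2 in WT PBS (log2 2.13 ± 0.38, edgeR adjusted p = 0.0342). The smallest p was that of 4930547E14Rik, at 301 and 385 CPM against 51.6 and 46.4 (2.86 ± 0.40, edgeR adjusted p = 0.0239).

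The largest ratio was that of 1700007F19Rik, an intergenic noncoding RNA, with 43 UMIs in 5×FAD Aβ3FTnAu and 1 in WT PBS, a ratio of 75.2 with a 95% counting interval of 12.8 to 3036. It had 0 UMIs in both 5×FAD PBS samples. Gm10848, Gm26854, Gm9968, Gm16183, 1700085D07Rik, Gm12296, 1700109K24Rik and 4933424G05Rik rose by 2.64 to 3.17 on the log2 scale. The 21 genes had a median log2 ratio of 2.36 in rule cells, 1.34 in other neurons (21 higher), 1.16 in oligodendrocyte-like cells (20 higher) and 1.56 in astrocyte-like cells (20 higher). Here too, counts over all genes in these classes were not made.

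Reln (0.00 ± 0.60, edgeR adjusted p = 0.999) and App (-0.06 ± 0.40, 0.988) did not pass in the comparison with WT PBS, and their sign depended on the processing. The rule genes had differences of 0.09 ± 0.54 (Trp73), -0.12 ± 0.65 (Ebf3) and -0.88 ± 0.83 (Lhx1), given as a description. Ndnf had -1.36 ± 0.50 (edgeR adjusted p = 0.307), with both samples below both WT PBS samples, and Apoe -0.55 ± 0.44 (0.766). Nhlh2, Lhx1os, Calb2, Thy1, Bax and C4b did not reach the count filter in any comparison.

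These gene counts depended on single libraries and on the cells used. Without 5×FAD Aβ3FTnAu replicate 2, or with only the cells that held a mitochondrial UMI, both counts of rises went to 0. Without other single libraries the 15 rises and 0 falls against 5×FAD PBS became 21 and 3 (5×FAD PBS replicate 1), 45 and 5 (5×FAD PBS replicate 2), 47 and 7 (5×FAD Aβ3FTnAu replicate 1), 66 and 15 (WT PBS replicate 1) and 79 and 15 (WT PBS replicate 2), with other numbers of genes tested in each. Where the counts were 0, edgeR gave 156 and 162 genes at an unadjusted p under 0.05 without that library and 153 and 120 with the mitochondrial requirement, and DESeq2 was not run on those sets. In the whole cluster, a choice made after seeing the data, edgeR called 1 of 2209 genes for 5×FAD PBS against WT PBS (0.0453%), 7 for 5×FAD Aβ3FTnAu against 5×FAD PBS (0.317%) and 2 for 5×FAD Aβ3FTnAu against WT PBS (0.0905%). The first was Tenm2, a teneurin adhesion gene, which fell, and the last were Dpp10 and Sgcz, which fell. The 7 that rose were Epha6, Kcnd2, Kalrn, Iqgap2, Man1a, Pex5l and 4930419G24Rik, of which only the last was among the 15. These were named after their values were seen. DESeq2 called 16, 24 and 4 genes in the whole cluster. With 1 library left out edgeR called 0 to 36, 0 to 90 and 0 to 118, with the largest counts without a WT PBS sample. Without 5×FAD Aβ3FTnAu replicate 1 both comparisons of that group gave 0, with 165 and 186 genes at an unadjusted p under 0.05, and without 5×FAD PBS replicate 2 the first comparison gave 0, with 289. DESeq2 was not run on those.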

How the data were processed

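Single-cell RNA was measured in 6 hippocampal samples with the 10x Genomics 3′ chemistry (v3.1 per the labels' protocols). Raw UMI counts for 32285 genes were deposited as 1 matrix a sample. Per the file headers the authors ran Cell Ranger 7.1.0, and the submitters' processing notes name mm10 and Seurat 4.3.0.1. The sources used here do not say whether introns or strand were counted.

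All values were computed from these counts with Python 3.11.15, scanpy 1.11.5 and R 4.3.3. Cells were clustered over all samples (2000 variable genes, 30 components, 15 neighbours, Leiden resolution 1.0). Doublets were scored with Scrublet, whose automatic calls ran from 0.0128% to 17.3% of a sample and were not used. Removing the highest scores at 0.8% per 1000 cells, which takes 12 rule cells, was an alternative. Groups were compared on sums per sample with edgeR 4.0.16 (TMM, filterByExpr, quasi-likelihood test, Benjamini-Hochberg over all genes tested, 6 samples in 1 fit), and DESeq2 1.42.0 was an alternative. CPM ratios used 1 CPM as pseudocount. Replicates differed by more than sampling noise (chi-square per degree of freedom 1.94 to 2.78), and the steps were tested on simulated data. Gene positions are from GENCODE on GRCm38.

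The members and gene lists were chosen with earlier results of these data known. Genes were named by a rule: the rule genes and a fixed set in each comparison, the 20 largest and 10 smallest profile ratios, up to 10 rises and 10 falls by fold among called genes with separate samples, and the 5 smallest p-values per direction where under 5 passed. Some items that these rules name are not reported here.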

Additional observations from a re-analysis of the deposited data

Results flagged for a closer look

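For 10 genes the change from 5×FAD PBS to 5×FAD Aβ3FTnAu differed between rule cells and other neurons by the edgeR interaction test. It was more positive in rule cells for Nell1 (log2 difference 5.19, 305 against 5.22 CPM in rule cells and 344 against 259 in other neurons), Cntnap5c (3.34, 424 against 32.0 and 461 against 363), Khdrbs3 (3.12, 585 against 53.6 and 675 against 535), Tenm3 (2.71, 509 against 81.7 and 833 against 732), Galntl6 (2.59, 1166 against 148 and 2610 against 2003), Chrm3 (2.57, 687 against 73.7 and 900 against 617) and Brd9 (2.24, 292 against 75.1 and 189 against 212). For each of these genes, rule cells of the Aβ3FTnAu samples were nearer to other neurons of the same group than were rule cells of the 5×FAD PBS samples.

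The change was more negative in rule cells for Npas3 (-3.06, 40.5 against 230 CPM in rule cells and 416 against 222 in other neurons), Kcnmb2 (-2.98, 44.3 against 216 and 224 against 128) and Ndnf (-2.71, 322 against 1467 and 10.8 against 7.37). For all 3, Npas3 being a transcription factor gene, the mean of the Aβ3FTnAu samples was lower in rule cells and higher in other neurons. Adjusted p-values of the 10 ran from 0.0279 to 0.0493. Rule cells inside the cluster gave 9 such genes of 1080 tested. Of the 10 above, only Ndnf (-2.52, edgeR adjusted p = 0.00996) and Chrm3 (3.94, edgeR adjusted p = 0.0240) were among them. The others called there were Epha6, Reln, Nrxn3, Rbfox1, Kcnd2, Utrn and Iqgap2. Of the 10, Galntl6 and Tenm3 were tested inside the cluster, whereas Kcnmb2 was below the count filter there and could not be called.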

How the results depend on the processing

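For gene tests, the whole cluster and the limit of 10000 UMIs were chosen after seeing the data. Called genes for 5×FAD PBS against WT PBS (0) were 1 with DESeq2, 10 with no filter on low counts and 1 in the whole cluster, and 0 to 14 with a replicate left out. For 5×FAD Aβ3FTnAu against 5×FAD PBS (15) they were 25 with DESeq2, 73 with no filter, 8 with only the groups compared, 8 without doublets, 4 under the stricter rule, 0 with mitochondrial UMIs, 7 in the whole cluster, and 0 to 94 with a replicate left out. For 5×FAD Aβ3FTnAu against WT PBS (21) they were 12 with DESeq2, 58 with no filter, 3 with only the groups compared, 6 without doublets, 3 under the stricter rule, 5 inside the cluster, 0 with mitochondrial UMIs, 2 in the whole cluster, 3 under 10000 UMIs, and 0 to 96 with a replicate left out. Genes whose change differed from other neurons numbered 6, 16 and 2 in the whole cluster and 1 inside it for 5×FAD Aβ3FTnAu against WT PBS. The share for 5×FAD PBS against WT PBS was 0.48 under the stricter rule and -0.53 to 0.0184 with a replicate left out. For 5×FAD Aβ3FTnAu against 5×FAD PBS (-0.30) it was 0.35 in the whole cluster, -0.78 under the stricter rule, -0.62 of neuron-like cells and -0.57 to -0.0274 with a replicate left out. Against WT PBS it passed at -0.82 of neuron-like cells, in the fit of 2 classes that are not independent. Among named genes, signs turned only for 5×FAD Aβ3FTnAu against WT PBS, and none of these was called. Trp73 was -0.0184 with no filter, -0.14 with mitochondrial UMIs and -0.13 in the whole cluster. Ebf3 was 0.15 under the stricter rule, 0.28 in the whole cluster and 0.0278 under 10000 UMIs. App was 0.00578 under the stricter rule and 0.0244 inside the cluster. Reln was -0.0258 with DESeq2, -0.0273 with only the groups compared, -0.13 with no filter, -0.0580 with at least 10 UMIs in 2 samples, -0.14 inside the cluster and -0.50 with mitochondrial UMIs. With a replicate left out the values ran from -0.66 to 0.668 for Trp73, -1.51 to 0.74 for Ebf3, -2.50 to 0.27 for Lhx1, -1.18 to 0.589 for Reln and -0.34 to 0.14 for App. Correlations of deviations between samples of equal replicate number were 0.14, -0.14 and -0.05. From sums over so few cells, they cannot tell whether equal numbers mark shared animals or days. With a replicate block 0, 19 and 12 genes were called, and Reln against WT PBS was -0.30. The causes were not tested, beyond the fewer cells and genes that these sets hold.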
